A study of Mus musculus with 15 samples.

Results

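The proteasome genes described here are the 49 genes, of 21761 in the deposited expression table, whose symbol starts with Psma, Psmb, Psmc, Psmd, Psme, Psmf or Psmg followed by a number. Transcript levels were measured by sequencing of poly(A) RNA in 15 libraries of splenic B cells, in 5 groups of 3. The mice were wild-type female C57BL/6J, and the labels name the same 3 mice in each group. The naive group held unstimulated CD43- B cells. The other 4 groups were CD43- B cells stimulated for 3 days with LPS, IL-2 and IL-5. They were enriched with magnetic beads for GL7, a surface marker of activated B cells, or for CD138, a marker of plasmablasts (antibody-secreting cells that still divide). Each fraction had been cultured with 250 nM GSK-J4, an inhibitor of the H3K27me3 demethylases KDM6A and KDM6B, or with its solvent DMSO. Magnetic enrichment does not give pure populations, and the naive group differs from the cultured groups in stimulation, culture and enrichment together, so these cannot be told apart. The age of the mice is not given in the labels.

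The proteasome degrades proteins tagged with ubiquitin. Its core particle is a barrel of alpha rings (Psma genes), which gate the entrance, and beta rings (Psmb genes), which hold the proteolytic sites. Psmb5, Psmb6 and Psmb7 encode the catalytic subunits found in most tissues. In the immunoproteasome, which is typical of lymphocytes and of cells exposed to interferon, Psmb8, Psmb9 and Psmb10 take the places of Psmb5, Psmb6 and Psmb7 respectively, and change which peptides are cut for presentation on MHC class I. The regulatory particle recognizes and unfolds substrates with a ring of ATPases (Psmc genes) and non-ATPase subunits (Psmd genes), while PA28 (Psme1 and Psme2) is an alternative cap. Plasma cells make large amounts of antibody and are sensitive to proteasome inhibitors.

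Values are RPKM (reads per kilobase of gene length and per 1000000 reads) as deposited, so levels can be set against each other between genes per length. Depth, recovered from the steps of the values, ran from 6175171 to 13190014 reads in 14 libraries, and the library of naive replicate 2 held 1318002. Of the 49 genes 47 reached 1 RPKM in at least 3 libraries and were tested. The third CD138+ GSK-J4 library is numbered 4 in the table and matches the label of that group but of no single mouse. Behind a tested value there were at least 5 reads, in Psmc3ip in naive replicate 2. The genes left out were Psma8, an alpha subunit of the testis, at 0 to 0.139 RPKM, and Psmb11, the beta subunit of the thymus. Psmb11 was at 0 to 0.122 RPKM in 14 libraries and at 2.32 RPKM, 13 reads, in naive replicate 2. Psmc3ip matched the name rule and encodes a protein of meiotic recombination, not a subunit. The B cell markers Cd79a, Cd79b and Ms4a1 summed to 2278 to 2883 RPKM in naive and to 723 to 1238 RPKM in cultured libraries. The 4 plasmablast markers (Sdc1, Prdm1, Irf4, Xbp1) summed to 1301 to 1555 RPKM in CD138+ and to 355 to 491 RPKM in GL7+ libraries. Naive libraries also had higher sums of 8 myeloid markers, led by Lyz2 (59.0 to 95.5 RPKM summed, against 1.46 to 4.32 in cultured libraries), of 5 erythroid and platelet markers, led by Hbb-b1 (70.1 to 85.9 against 0.766 to 9.61 RPKM), and of 4 NK cell markers (3.26 to 6.25 against 0 to 0.279 RPKM). The myeloid marker Itgam did not follow its sum, at 2.34 to 3.38 RPKM in naive and 1.91 to 3.4 RPKM in GL7+ DMSO libraries. The 7 T cell markers summed to 8.42 to 9.22 RPKM in naive, 0.816 to 1.10 in GL7+, 7.61 to 8.08 in CD138+ DMSO and 3.88 to 5.81 RPKM in CD138+ GSK-J4 libraries. In CD138+ cells Cd28 made up most of that sum (means of 7.56 and 4.76 RPKM), and the defining T cell gene Cd3e was at 0 in all 12 cultured libraries. The 5 dendritic cell markers, led by Itgax in naive and by Flt3 in cultured cells, summed to 22.4 to 25.6 RPKM in naive, 31.3 to 33.1 in GL7+ DMSO, 21.0 to 22.0 in GL7+ GSK-J4, 9.77 to 11.1 in CD138+ DMSO and 5.50 to 7.12 RPKM in CD138+ GSK-J4 libraries. The part of these markers in the comparisons was not tested. In bulk RNA, fewer cells of a type and less RNA per cell cannot be told apart.

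Proteasome genes took a larger share of the reads in stimulated than in naive cells. The share was 0.326%, 0.324% and 0.338% in the 3 naive libraries. It was 0.760%, 0.792% and 0.759% in GL7+ DMSO and 0.713%, 0.717% and 0.720% in CD138+ DMSO libraries. All cultured libraries lay above all naive libraries, and the CD138+ DMSO libraries lay below the GL7+ DMSO libraries. With GSK-J4 the share was 0.819%, 0.820% and 0.865% in GL7+ and 0.705%, 0.696% and 0.693% in CD138+ cells. The range in GL7+ cells was thus higher with GSK-J4 than with DMSO, and that in CD138+ cells was lower, in both cases without overlap.

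**Figure D1:**
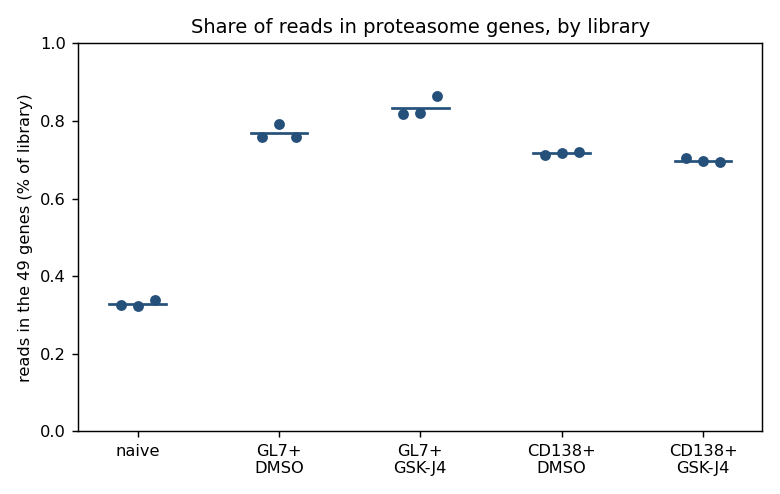
The y axis gives the percentage of each library's reads that fell in the 49 proteasome genes, for 5 groups of 3 libraries (points) with the group mean (line). Naive libraries sit between 0.324% and 0.338%, and all 12 cultured libraries lie between 0.693% and 0.865%.

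The first question was how the proteasome differs between naive cells and their stimulated progeny, and whether the immunoproteasome follows the constitutive subunits. Of the 47 tested genes 46 were higher and 1, Psmb10, was lower in GL7+ DMSO than in naive cells (limma, adjusted p under 0.05), while 41.3% of the 10866 genes tested were higher and 40.3% were lower. The median change of the 47 was 1.34 on the log2(RPKM + 1) scale, on which all changes here are given, against 0.01 over all genes tested. In CD138+ DMSO against naive cells 45 were higher and Psmb10 was lower, with 39.9% of all genes higher and 43.5% lower. The median change was 1.20 against -0.05 over all genes. TMM scaling moved the latter median by 0.13, to 0.08, and that of the 47 genes to 1.35. Without naive replicate 2 the counts were 46 and 1 in GL7+ and 44 and 1 in CD138+ cells. Both comparisons share the naive libraries. Without overlap with naive libraries, 46 genes were higher and 1 was lower in GL7+ cells (40.7% and 40.0% of all genes tested). In CD138+ cells 45 were higher and 1 was lower (39.4% and 42.8% of all genes).

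All 3 constitutive catalytic subunits rose. Psmb5, the chymotrypsin-like subunit, was at 38.4, 38.1 and 32.3 RPKM in naive cells. It was at 102, 113 and 104 RPKM in GL7+ DMSO and at 116, 114 and 125 RPKM in CD138+ DMSO libraries. The naive libraries were the lowest without overlap, with log2 changes of 1.53 ± 0.08 (SE, n = 3 against 3, adjusted p = 1.4e-10 by limma) and 1.68 ± 0.08 (adjusted p = 3.6e-11 by limma). Psmb6, the caspase-like subunit, was at 46.0, 68.8 and 53.3 RPKM in naive cells, where the library with few reads was the highest. It stood at 104, 111 and 107 RPKM in GL7+ DMSO and at 117, 122 and 129 RPKM in CD138+ DMSO libraries, again without overlap with naive cells. Its changes, 0.95 ± 0.10 and 1.14 ± 0.10, were the smallest of the 3. Psmb7, the trypsin-like subunit, was at 17.2, 13.4 and 15.9 RPKM in naive cells. Its levels were 49.3, 53.9 and 50.4 RPKM in GL7+ DMSO and 44.1, 45.4 and 46.3 RPKM in CD138+ DMSO libraries. These are changes of 1.67 ± 0.07 and 1.49 ± 0.07, and the 3 groups did not overlap.

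Their immunoproteasome counterparts were already high in naive cells and moved less. Psmb8, the counterpart of Psmb5, was at 138, 155 and 156 RPKM in naive cells, 208, 208 and 198 RPKM in GL7+ DMSO and 207, 200 and 201 RPKM in CD138+ DMSO libraries. Both stimulated groups lay above the naive libraries, with changes of 0.45 ± 0.05 (SE, adjusted p = 1.8e-06 by limma) and 0.44 ± 0.05 (adjusted p = 2.4e-06 by limma). Psmb9, the counterpart of Psmb6, was at 75.4, 83.8 and 84.0 RPKM in naive cells. It reached 119, 109 and 110 RPKM in GL7+ DMSO and 111, 104 and 107 RPKM in CD138+ DMSO libraries, changes of 0.47 ± 0.06 and 0.40 ± 0.06. Under quantile normalization Psmb8 no longer passed the test in either comparison (0.11, adjusted p = 0.056, and 0.07, adjusted p = 0.22, by limma), nor did Psmb9 in CD138+ cells (0.11, adjusted p = 0.12). Psmb10, the counterpart of Psmb7, went the other way. It was at 43.6, 46.0 and 39.7 RPKM in naive cells, 35.4, 36.2 and 33.2 RPKM in GL7+ DMSO and 28.1, 28.6 and 28.0 RPKM in CD138+ DMSO libraries. The 3 groups fell in that order without overlap. Psmb10 fell by 0.29 ± 0.07 in GL7+ cells (adjusted p = 0.0017 by limma) and by 0.59 ± 0.07 in CD138+ cells (adjusted p = 2.2e-06 by limma), and was lower in all 22 alternative analyses.

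**Figure D2:**
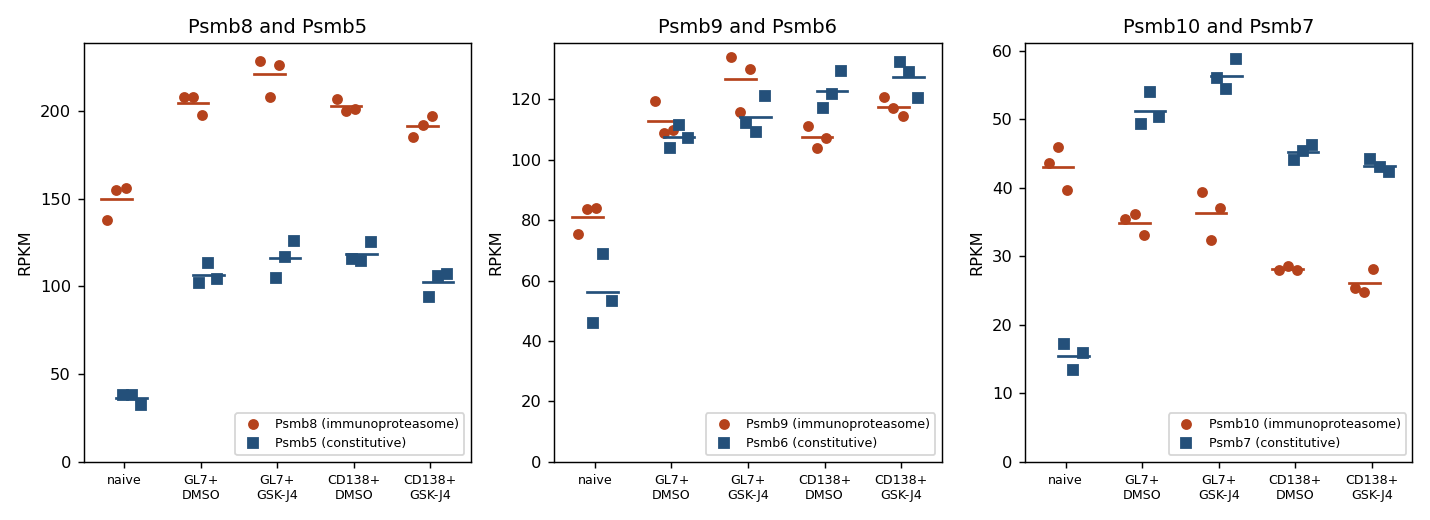
Each panel plots the RPKM of an immunoproteasome catalytic subunit (circles) and of the constitutive subunit whose place it takes (squares) in the 15 libraries, with group means as lines. Psmb10 lies above Psmb7 in the naive libraries and below it in the cultured libraries, while Psmb8 stays above Psmb5 in all 15.

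The ratio of the paired subunits within a library does not depend on library scaling. The ratio of Psmb8 to Psmb5 was 3.60, 4.08 and 4.82 in naive cells, 2.04, 1.83 and 1.90 in GL7+ DMSO and 1.79, 1.75 and 1.61 in CD138+ DMSO libraries. It was thus highest in naive cells, by 2.15-fold over GL7+ and 2.41-fold over CD138+ cells (ratios of geometric means). For Psmb9 to Psmb6 the ratio was 1.64, 1.22 and 1.58 in naive cells, 1.15, 0.978 and 1.02 in GL7+ DMSO and 0.950, 0.851 and 0.828 in CD138+ DMSO libraries. The naive libraries were again the highest, by 1.40-fold and 1.67-fold. For Psmb10 to Psmb7 it was 2.54, 3.44 and 2.49 in naive cells, 0.718, 0.671 and 0.659 in GL7+ DMSO and 0.637, 0.630 and 0.606 in CD138+ DMSO libraries. This pair differed most, by 4.10-fold and 4.48-fold, and its ratio was above 1 in all 3 naive libraries and below 1 in all 12 cultured libraries. None of these 6 comparisons with naive cells showed overlap. Each had p = 0.1 in an exact two-sided permutation test, the smallest p that 3 against 3 libraries allow, and an adjusted p of 0.164 over the 18 ratio tests. This permutation test can therefore not reach the threshold of 0.05 with 3 libraries a group. The table gives Psmb7 a length of 3289 bases against 1270 for Psmb10, so the ratio of 1 depends on the length used, while the folds between groups do not.

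**Figure D3:**
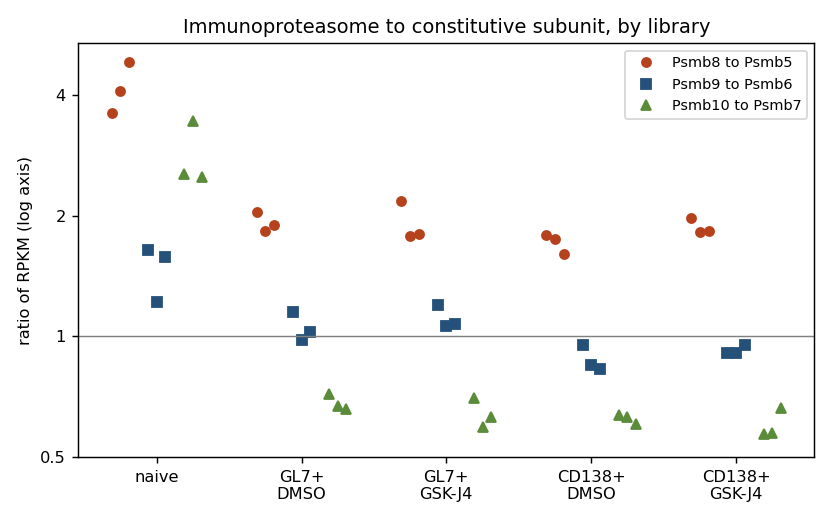
The y axis is a log axis of the ratio of RPKM within each of the 15 libraries, for 3 pairs of immunoproteasome to constitutive catalytic subunit, and the line marks a ratio of 1. All 3 ratios are highest in naive cells, and that of Psmb10 to Psmb7 runs from 2.49 to 3.44 there and from 0.573 to 0.718 in cultured cells.

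The 150 bases upstream of the annotated start site (RefSeq, GRCm38.p6, 5′ to 3′ on the strand of the gene) are shown for 2 of these pairs, since their members moved by different amounts. Of the other pair, Psmb7 had no entry. Capitals mark matches of TGACNNNGC, the core of the antioxidant response element that NFE2L1, a transcription factor of proteasome genes, can bind. The windows are chr14:54617996-54618145 (minus strand) for Psmb5, chr17:34198045-34198194 (plus strand) for Psmb8, chr11:70525207-70525356 (plus strand) for Psmb6 and chr17:34187331-34187480 (minus strand) for Psmb9.
Psmb5: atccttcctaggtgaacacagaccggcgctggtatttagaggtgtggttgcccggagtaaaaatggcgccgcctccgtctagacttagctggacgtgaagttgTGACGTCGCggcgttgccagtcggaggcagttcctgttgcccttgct
Psmb8: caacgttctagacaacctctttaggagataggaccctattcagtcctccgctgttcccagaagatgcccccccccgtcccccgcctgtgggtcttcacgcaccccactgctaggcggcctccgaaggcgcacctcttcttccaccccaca
Psmb6: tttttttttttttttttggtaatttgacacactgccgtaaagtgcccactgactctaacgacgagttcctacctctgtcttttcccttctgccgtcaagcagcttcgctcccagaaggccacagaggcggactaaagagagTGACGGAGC
Psmb9: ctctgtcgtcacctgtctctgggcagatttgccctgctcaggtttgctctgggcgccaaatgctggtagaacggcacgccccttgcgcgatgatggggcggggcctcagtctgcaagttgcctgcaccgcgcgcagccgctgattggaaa

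Both strands were searched from 250 bases before to 50 after the start site in the 41 proteasome genes with an entry. A gene with several start sites counted if any of its windows held a match. TGACNNNGC was found in 6 of them (14.6%: Psmb5, Psmb6, Psmc6, Psmd9, Psmd12 and Psme4). It was found in 14.0% of all 27025 genes with an entry, so the shares were alike. None of the 6 matches held the related AP-1 motif TGACTCA. GAAANNGAAA, the core of the interferon-stimulated response element, was found in 5 of 41 (12.2%: Psmb3, Psmd4, Psmd9, Psme1 and Psmg4). Of all genes with an entry 3.99% held it. Of the 5 immunoproteasome and PA28 genes, Psme1 held it and Psmb8, Psmb9, Psmb10 and Psme2 did not. CCAAT was found in 36.6% of the 41 proteasome genes and in 41.1% of all genes with an entry. A match is only a match of letters, and its absence says only that these letters are not in this window.

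The changes of the PA28 genes, whose products form the alternative cap, were small too. Psme1 (PA28 alpha) was at 170, 210 and 185 RPKM in naive cells, 231, 228 and 221 RPKM in GL7+ DMSO and 185, 184 and 183 RPKM in CD138+ DMSO libraries. Only the GL7+ libraries lay above the naive ones, by 0.27 ± 0.07 (SE, adjusted p = 0.0024 by limma), a change that turned to -0.04 under quantile normalization. The CD138+ libraries overlapped with the naive libraries (-0.03 ± 0.07, adjusted p = 0.71 by limma), and this value turned positive without naive replicate 2 (0.05), with voom (0.02) and with TMM scaling (0.12), while quantile normalization gave a called fall to -0.37. Psme2 (PA28 beta) was at 102, 90.9 and 101 RPKM in naive cells, 150, 138 and 136 RPKM in GL7+ DMSO and 155, 150 and 148 RPKM in CD138+ DMSO libraries. Both stimulated groups lay above the naive libraries, by 0.52 ± 0.06 and 0.62 ± 0.06. The median change of the 5 immunoproteasome and PA28 genes was 0.45 in GL7+ and 0.40 in CD138+ cells, against 1.41 and 1.23 for the 42 other tested genes, all 42 of which rose in both comparisons.

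By role, the changes were largest in the core and regulatory particles and smaller in several assembly factors. The 7 tested alpha subunits rose by 1.23 to 1.75 in GL7+ and by 1.14 to 1.55 in CD138+ cells. The structural beta subunits Psmb1 to Psmb4 rose by 1.08 to 1.58 and by 1.04 to 1.59. The 6 ATPases of the regulatory particle rose by 1.13 to 1.75 and by 0.99 to 1.70, with Psmc1 the highest in both, and its 11 non-ATPase subunits by 0.58 to 2.11 and by 0.35 to 2.10. At the top of that range was Psmd14, the deubiquitinase that removes the ubiquitin chain from substrates. It was at 39.9, 35.5 and 36.5 RPKM in naive cells, 166, 167 and 157 RPKM in GL7+ DMSO and 171, 159 and 159 RPKM in CD138+ DMSO libraries. These are 4.39-fold and 4.37-fold differences of the means, with no overlap. Psmd1, a large scaffold subunit, changed by 1.78 and 1.54, and Psmd8 by 1.62 and 1.59, so that Psmd1 followed in GL7+ and Psmd8 in CD138+ cells. At the bottom was Psmd4, a ubiquitin receptor, at 25.9 ± 2.75 RPKM (SD, n = 3) in naive, 39.1 ± 1.40 in GL7+ DMSO and 33.2 ± 1.67 in CD138+ DMSO cells. In GL7+ cells the 31 tested constitutive core and regulatory subunits thus all changed by more than any of the 5 immunoproteasome and PA28 genes. In CD138+ cells Psmd4, at 0.35, lay below Psmb8 (0.44), Psmb9 (0.40) and Psme2 (0.62).

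Among the assembly factors of the core particle, Psmg1 rose from 8.78, 8.47 and 6.91 RPKM in naive cells to 30.6, 39.0 and 35.1 RPKM in GL7+ DMSO and 25.3, 24.1 and 25.1 RPKM in CD138+ DMSO libraries. The 3 groups did not overlap, and the changes were 1.99 ± 0.13 and 1.52 ± 0.13. Psmg4 was at the other end, at 15.8, 15.4 and 15.3 RPKM in naive, 18.9, 21.3 and 23.0 RPKM in GL7+ DMSO and 17, 17.5 and 17.3 RPKM in CD138+ DMSO libraries. Its rise in CD138+ cells, 0.15 ± 0.06 (SE, adjusted p = 0.033 by limma), was lost without naive replicate 2 or 3, without CD138+ DMSO replicate 2 or 3 and with voom. The chaperones of the regulatory particle, Psmd5, Psmd9 and Psmd10, rose by 0.69 to 0.85 and by 0.48 to 0.70. Psme3, which encodes the nuclear PA28 gamma, rose by 0.95 and 0.54, and Psme4, which encodes the activator PA200, by 0.64 and 1.42. Psmf1, which encodes the regulator PI31, rose by 0.29 and 0.21. The latter call was lost when only the groups compared were fitted or without CD138+ DMSO replicate 2. Psmc3ip, which is no subunit, had the largest change of the 47 in GL7+ cells (2.14 ± 0.12) and one of 2.07 ± 0.12 in CD138+ cells, from levels of 2.11, 3.30 and 1.97 RPKM in naive cells.

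**Figure D4:**
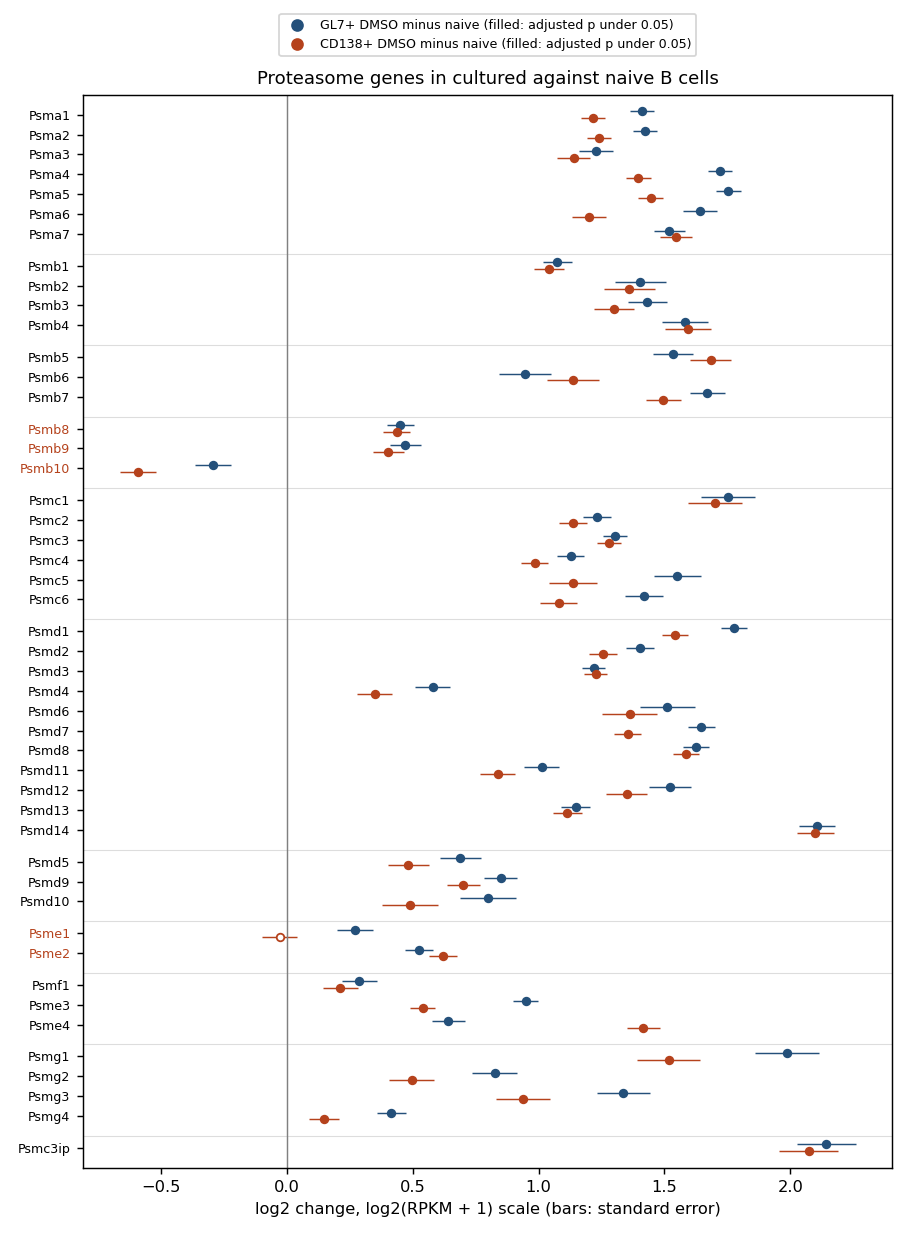
Each row is 1 of 47 tested genes, grouped by role, and the x axis gives the log2 change from naive cells with its standard error for GL7+ DMSO (blue) and CD138+ DMSO cells (red), with filled points past the threshold. The genes with red labels (immunoproteasome and PA28) lie between -0.59 and 0.62, while the tested constitutive core and regulatory subunits lie between 0.35 and 2.11.

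Genes that belong to the proteasome or work with it but lie outside the name rule were followed as 2 lists. A list of 21 genes covered assembly, ubiquitin delivery, transcriptional control and parts of the regulatory particle such as Adrm1 and Shfm1. Of these, 15 rose (71.4%) and 3 fell (14.3%) against naive cells in each DMSO fraction, with median changes of 0.44 in GL7+ and 0.67 in CD138+ cells. Of all genes tested, 41.3% rose and 40.3% fell in GL7+ cells, and 39.9% rose and 43.5% fell in CD138+ cells. Pomp, the chaperone that matures the beta ring, was at 12.1, 12.6 and 11.6 RPKM in naive and 27.4 to 28.8 RPKM in GL7+ DMSO libraries, changes of 1.15 ± 0.04 and 1.10 ± 0.04 in GL7+ and CD138+ cells. Vcp, the segregase that extracts ubiquitinated proteins, rose by 1.57 and 1.93, and Txnl1, a thioredoxin-like protein of the regulatory particle, by 1.95 and 2.15. Nfe2l1 rose less, by 0.44 ± 0.07 and 0.50 ± 0.07. Among 7 genes of peptide loading and interferon signalling, 2 rose and 3 fell in GL7+ cells, with a median of -0.02, and 2 rose and 2 fell in CD138+ cells, with a median of -0.08. The peptide transporter genes Tap1 and Tap2, neighbours of Psmb9 and Psmb8 in the MHC locus, changed by 0.10 and -0.02 in GL7+ and by 0.12 and -0.08 in CD138+ cells, none past the threshold. Tap1 turned negative under quantile normalization and Tap2 positive under TMM scaling in both. Irf1, an interferon-activated factor that induces immunoproteasome genes, fell by 1.12 ± 0.18 in GL7+ cells and by 1.06 ± 0.18 in CD138+ cells. Erap1, a peptide-trimming aminopeptidase, rose by 0.29 and 0.27. B2m, the light chain of MHC class I, fell by 0.55 ± 0.11 in GL7+ cells, and Tapbp, which loads peptides, rose by 0.62 ± 0.04 in CD138+ cells.

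The next question was how the proteasome differs between the CD138+ and GL7+ fractions cultured with the same treatment. With DMSO, 23 of 47 genes were lower and 1 was higher in CD138+ cells, while 36.9% of all genes tested were lower and 21.8% higher. The median change was -0.15 against -0.10 over all genes. With GSK-J4, 34 were lower and 1 was higher, against 39% and 24% of all genes, with a median of -0.33 against -0.10. The gene that was higher in both was Psme4, whose product, PA200, caps the core particle in the nucleus. Psme4 was at 18.1, 16.5 and 17.4 RPKM in GL7+ DMSO and at 30.0, 30.2 and 30.7 RPKM in CD138+ DMSO libraries. It was at 19.4, 22.2 and 18.7 RPKM in GL7+ GSK-J4 and at 29.3, 30.8 and 30.2 RPKM in CD138+ GSK-J4 libraries. The fractions did not overlap in either treatment, with changes of 0.77 ± 0.07 (SE, adjusted p = 1.4e-07 by limma) and 0.56 ± 0.07 (adjusted p = 3.1e-06 by limma). Of all genes tested, 26.5% with DMSO and 27.1% with GSK-J4 were likewise higher in CD138+ cells without overlap, and 44.8% and 43.1% were lower. Without naive replicate 2, which enters only through the shared estimate of the spread, 2 genes were called higher in each comparison. Erlec1 overlaps Psme4 in the RefSeq annotation, and the strand of counting is not given, so reads of both cannot be told apart.

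The 4 assembly factors Psmg1 to Psmg4 were all lower in CD138+ cells, by 0.27 to 0.47 with DMSO and by 0.65 to 0.81 with GSK-J4. Psmg3 was at 17.9, 19.4 and 19.5 RPKM in GL7+ DMSO and 14.9, 13.4 and 14.1 RPKM in CD138+ DMSO libraries. With GSK-J4 it was at 20.53, 16.8 and 21.8 RPKM in GL7+ and 10.3, 10.1 and 11.95 RPKM in CD138+ libraries, with the largest of the 47 changes in that comparison (-0.81 ± 0.11), followed by Psmg4 (-0.77 ± 0.06). Psmg2 was at -0.68 ± 0.09. Other genes with large differences were Psma6 (-0.44 with DMSO and -0.71 with GSK-J4), the ATPase gene Psmc5 (-0.42 and -0.68) and Psme3 (-0.41 and -0.47). The immunoproteasome and PA28 genes were divided. With DMSO, Psmb10 (-0.30 ± 0.07, adjusted p = 0.0027 by limma) and Psme1 (-0.30 ± 0.07, adjusted p = 0.002 by limma) were lower in CD138+ cells. Psmb8 (-0.01 ± 0.05), Psmb9 (-0.07 ± 0.06) and Psme2 (0.10 ± 0.06) did not pass the threshold, and Psmb8 turned to 0.03 under TMM scaling. Psmb5 (0.15 ± 0.08) and Psmb6 (0.19 ± 0.10) did not pass it either, and Psmb7 was lower (-0.17 ± 0.07, adjusted p = 0.043 by limma). The call for Psmb7 was lost in 13 of 22 alternatives, among them the mouse as a block and TMM scaling. With GSK-J4, Psmb8, Psmb10, Psme1 and Psme2 were lower in CD138+ cells (-0.17 to -0.46) and Psmb9 was not called (-0.11 ± 0.06, adjusted p = 0.15 by limma). The ratio of Psmb9 to Psmb6 was below 1 in all 6 CD138+ libraries and above 1 in 5 of 6 GL7+ libraries, a 1.20-fold difference with each treatment (exact two-sided permutation p = 0.1, the smallest possible, adjusted p = 0.164).

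Outside the name rule, 10 of 21 associated genes were higher and 5 lower in CD138+ than in GL7+ cells with DMSO. These are 47.6% and 23.8%, against 21.8% and 36.9% of all genes tested. Ngly1, a deglycosylase of misfolded glycoproteins that also processes NFE2L1, was at 15.3 against 7.88 RPKM (0.88 ± 0.09), and Nploc4, a cofactor of VCP, at 56.5 against 39.2 RPKM (0.52 ± 0.05). Nfe2l1 (0.06 ± 0.07) and Pomp (-0.04 ± 0.04) did not pass the threshold with DMSO, and with GSK-J4 Nfe2l1 was higher (0.30 ± 0.07) and Pomp lower (-0.12 ± 0.04, a call lost with mouse as a blocking term). With GSK-J4, Usp14, a deubiquitinase of the regulatory particle, was lower (-0.65 ± 0.07) and Rad23b, a ubiquitin shuttle, was higher (0.36 ± 0.05). Tapbp (0.49 and 0.72) and B2m (0.46 and 0.86) were higher in CD138+ cells with DMSO and with GSK-J4. Irf1 (0.06 and 0.24) and Tap2 (-0.06 and -0.02) did not pass the threshold in either, while Tap1 did so with GSK-J4 only (0.02 and 0.22). Pomp and Tap2 with DMSO and Tap2 with GSK-J4 changed sign under quantile normalization.

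The question of the treatment was which proteasome genes differed between GSK-J4 and DMSO. In GL7+ cells, 9 of 47 genes were higher with GSK-J4 than with DMSO (19.1%, against 5.81% of all genes tested) and 1 was lower (against 7.71%). The changes were small. Of the 47 genes 45 had a positive change, as had 5115 of all 10866 genes tested. The median was 0.12 against -0.01 over all genes, and the genes called higher ranged from 0.15 to 0.27. Psmg4 was at 18.9, 21.3 and 23.0 RPKM with DMSO and at 24.9, 26.6 and 25.3 RPKM with GSK-J4 (0.27 ± 0.06, SE, adjusted p = 0.0085 by limma). Psmd14 was at 166, 167 and 157 RPKM with DMSO and at 192, 193 and 205 RPKM with GSK-J4 (0.26 ± 0.07, adjusted p = 0.028 by limma). All GSK-J4 values of both genes lay above the DMSO values. That was so for 21 of the 47 genes and for 19.1% of all genes tested, and the reverse for 1 gene and for 21.6% of all genes. Psmc4, an ATPase, rose from 70.7 ± 1.22 to 82.8 ± 5.48 RPKM (SD, n = 3), and Psme3 from 137 ± 4.61 to 160 ± 6.49 RPKM, both without overlap. The other called genes were the ATPase gene Psmc2 and the regulatory subunits Psmd1, Psmd3, Psmd7 and Psmd13. Thus 7 of the 9 belong to the regulatory particle, which holds 6 ATPase and 11 non-ATPase genes of the 47 tested. Psmd8, also of the regulatory particle, was the lower gene, at 104, 110 and 103 RPKM with DMSO and 93.8, 91.8 and 94.4 RPKM with GSK-J4. It fell by 0.17 ± 0.05 (adjusted p = 0.037 by limma), a call lost when mouse was a blocking term (adjusted p = 0.058) and under TMM scaling. The count of 9 rested on few libraries. It was 14 without naive replicate 2, 1 without GL7+ DMSO replicate 1, 2 without GL7+ DMSO replicate 3, 5 without GL7+ GSK-J4 replicate 2, 2 without GL7+ GSK-J4 replicate 3 and 14 with voom, and only Psmg4 was called in all 22 alternatives. Plasmablast markers were also higher with GSK-J4 in GL7+ libraries (443 to 491 RPKM summed, against 355 to 375 with DMSO, 4 of 4 called higher). The 3 B cell markers summed to 916 to 1041 RPKM with GSK-J4 against 1204 to 1238 with DMSO (1 of 3 called lower), and the part of these markers in the changes was not tested.

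None of the 5 immunoproteasome and PA28 genes passed the threshold with GSK-J4 in GL7+ cells. With GSK-J4, Psmb8 was at 229, 208 and 227 RPKM (0.11 ± 0.05, SE, adjusted p = 0.20 by limma), just above the DMSO values of 198 to 208. Psmb9 was at 134, 116 and 130 RPKM (0.17 ± 0.06, adjusted p = 0.092 by limma) and overlapped with the DMSO values. Psmb10 was at 39.3, 32.4 and 37.1 RPKM (0.05 ± 0.07), a change that turned to -0.01 without GL7+ GSK-J4 replicate 1. Psme1 was at 248.6, 218 and 239 RPKM (0.05 ± 0.07) and Psme2 at 155, 147 and 161 RPKM (0.13 ± 0.06). Unadjusted, 2 of the 5 had a p under 0.05, as did 28% of all genes tested. The constitutive catalytic genes did not pass the threshold either. Psmb5 was at 105, 117 and 126 RPKM, Psmb6 at 112, 109 and 121 RPKM and Psmb7 at 56.0, 54.4 and 58.8 RPKM, with changes of 0.12 ± 0.08, 0.08 ± 0.10 and 0.14 ± 0.07. Of the 3 subunit ratios none changed by more than 1.06-fold, and the exact two-sided permutation p ran from 0.4 to 1 (adjusted p of 0.514 to 1). Of the 21 associated genes 3 were higher (14.3%, against 5.81% of all genes tested), among them Nploc4 (0.23 ± 0.05) and the ubiquitin shuttle Ubqln1 (0.20 ± 0.04). None of the 7 peptide loading and interferon genes passed the limma threshold. Nlrc5, 1 of the 7, had an unadjusted p under 0.05 (adjusted p = 0.025 by limma with mouse as a blocking term). Pomp changed by 0.13 ± 0.04, Nfe2l1 by -0.15 ± 0.07, Tap2 by -0.12 ± 0.06, Nlrc5 by 0.22 ± 0.10, Erap1 by 0.09 ± 0.06, Irf1 by -0.13 ± 0.18 and Tap1 by -0.02 ± 0.06, and of these Tap1 and Irf1 turned positive without GL7+ DMSO replicate 1.

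In CD138+ cells, 0 of 47 genes were higher with GSK-J4 (against 4.61% of all genes) and 4 were lower (8.51%, against 8.61% of all genes), a share at the background. Unadjusted, 11 of the 47 had a p under 0.05 by limma, against 27.1% of all genes, and 1 was called higher by voom and without naive replicate 1, and 2 without naive replicate 2. The median change was -0.05, against -0.03 over all genes. The 4 lower genes were the alpha subunits Psma1 and Psma5 and the assembly factors Psmg3 and Psmg4. Psma5 was at 103, 105 and 108 RPKM with DMSO and at 87.4, 89.7 and 85.0 RPKM with GSK-J4 (-0.26 ± 0.05, SE, adjusted p = 0.0033 by limma), without overlap, and was called in all 22 alternatives. Psmg4 was at 17, 17.5 and 17.3 RPKM with DMSO and at 14.8, 14.6 and 14.4 RPKM with GSK-J4 (-0.23 ± 0.06, adjusted p = 0.022 by limma). Psmg3 was at 14.9, 13.4 and 14.1 RPKM with DMSO and at 10.3, 10.1 and 11.95 RPKM with GSK-J4 (-0.36 ± 0.11, adjusted p = 0.036 by limma). In both genes all GSK-J4 values were the lower ones, as in 16 of the 47 genes and in 22.4% of all genes tested. The reverse held for 7 genes and for 14.4% of all genes. Psmg3 had at most 233 and Psmg4 at most 167 reads in any library, and neither was called with voom. Psma1 fell from 99.0 ± 2.87 to 89.0 ± 2.86 RPKM (SD, n = 3, adjusted p = 0.045 by limma). In the fit with mouse as blocking term, Psmg4 (adjusted p = 0.10) and Psma1 (adjusted p = 0.18) were not called. In that fit the library numbered 4, which has no mouse, carried no weight. The count of 4 was 7 without naive replicate 2, 1 when any CD138+ DMSO library or CD138+ GSK-J4 replicate 2 was left out, and 2 for CD138+ GSK-J4 replicate 1. It was 4 without the library numbered 4, but Psma1 and Psmg4 were then not called, so these were not the same 4 genes. The B cell markers summed to 723 to 756 RPKM with GSK-J4 against 862 to 924 with DMSO in CD138+ cells (2 of 3 called lower), while 0 of 4 plasmablast markers were called by limma (0 at an unadjusted p under 0.05), and the part of these markers was not tested.

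The immunoproteasome and PA28 genes did not pass the threshold in CD138+ cells, with 1 of 5 at an unadjusted p under 0.05. With GSK-J4, Psmb8 was at 185, 192 and 197 RPKM (-0.08 ± 0.05), below the DMSO values of 200 to 207. Psmb9 was at 121, 117 and 114 RPKM (0.13 ± 0.06), above the DMSO values of 104 to 111. Psmb8 and Psmb9, neighbours in the MHC locus, thus stood on opposite sides of their controls, and neither passed the test. Psmb10 was at 25.4, 24.8 and 28.2 RPKM (-0.11 ± 0.07). Psme1 was at 212, 191 and 192 RPKM (0.11 ± 0.07) and Psme2 at 133, 137 and 142 RPKM (-0.14 ± 0.06, adjusted p = 0.12 by limma). Psmb5 was at 94.0, 106 and 107 RPKM (-0.21 ± 0.08, adjusted p = 0.11 by limma), below all DMSO values of 114 to 125. Psmb6 (132, 129 and 120 RPKM, 0.05 ± 0.10) and Psmb7 (44.2, 43.0 and 42.3 RPKM, -0.06 ± 0.07) overlapped with DMSO. The ratio of Psmb8 to Psmb5 was 1.97, 1.82 and 1.83 with GSK-J4, above the 3 DMSO values, by 1.09-fold (exact two-sided permutation p = 0.1, the smallest possible, adjusted p = 0.164). The other ratios overlapped. Outside the name rule, Ubqln1 (0.26 ± 0.04) and Ubqln2 (0.24 ± 0.07) were higher with GSK-J4, as were B2m (434 ± 26.8 to 601 ± 54.4 RPKM, 0.47 ± 0.11) and Tapbp (0.21 ± 0.04). With mouse as blocking term, Ubqln2, B2m and Tapbp were not called (adjusted p of 0.12, 0.077 and 0.062 by limma). The library numbered 4 carried no weight in that fit. Pomp (0.05 ± 0.04), Nfe2l1 (0.09 ± 0.07), Tap1 (0.18 ± 0.06), Tap2 (-0.08 ± 0.06) and Irf1 (0.05 ± 0.18) did not pass the threshold, and Irf1 turned negative without CD138+ DMSO replicate 2 or CD138+ GSK-J4 replicate 1.

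**Figure D5:**
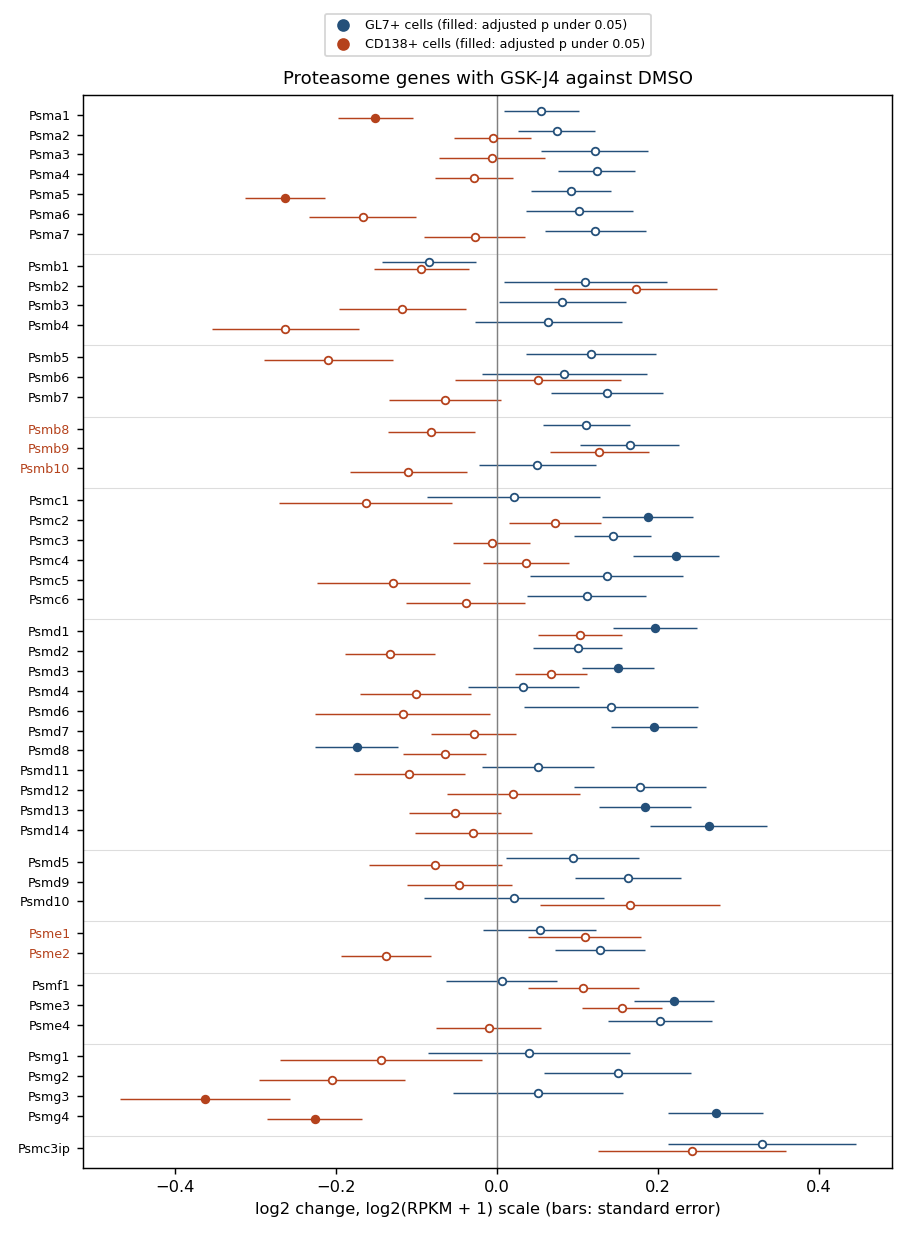
Each row is 1 of 47 tested genes, grouped by role, and the x axis gives the log2 change with GSK-J4 against DMSO with its standard error in GL7+ (blue) and CD138+ cells (red), with filled points past the threshold. In GL7+ cells 45 of 47 points lie to the right of 0, and in CD138+ cells 34 of 47 lie to the left. Of all 10866 genes tested, 5115 had a positive change in GL7+ and 6315 a negative change in CD138+ cells.

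Whether the response to GSK-J4 differed between the fractions was tested as the difference of the changes. That difference was called for 2 of 47 genes, both lower in CD138+ cells, against 0.644% of all genes lower and 0.322% higher. Psmg4, whose product helps to assemble the alpha ring, changed by 0.27 in GL7+ and by -0.23 in CD138+ cells, a difference of -0.50 ± 0.08 (SE, adjusted p = 0.017 by limma). Its length is 541 bases and it had at most 167 reads in any library, and this call was lost with voom on recovered reads. Psma5, an alpha subunit, changed by 0.09 and -0.26, a difference of -0.35 ± 0.07 (adjusted p = 0.030 by limma). Neither was called in the fit with mouse as blocking term (adjusted p of 0.063 and 0.11 by limma). The CD138+ GSK-J4 library numbered 4 carried no weight in that fit. The count was 0 on leaving out GL7+ GSK-J4 replicate 3 or CD138+ GSK-J4 replicate 2, and 1 on leaving out any other GL7+ GSK-J4 library, any CD138+ DMSO library, GL7+ DMSO replicate 1 or 3, or CD138+ GSK-J4 replicate 4. The median difference over the 47 genes was -0.17, against -0.02 over all genes. It was negative in 42 of the 47 and in 5867 of all 10866 genes tested. Among the catalytic and PA28 genes the values ran from -0.33 ± 0.11 in Psmb5 and -0.27 ± 0.08 in Psme2 to 0.06 ± 0.10 in Psme1. Psmb6 (-0.03 ± 0.15) and Psmb9 (-0.04 ± 0.09) did not pass the threshold and turned positive, the first with the mouse as a blocking term and without any of 3 single libraries, the other without GL7+ GSK-J4 replicate 1. Psmb7 (-0.20 ± 0.10), Psmb8 (-0.19 ± 0.08) and Psmb10 (-0.16 ± 0.10) did not pass it either. Of the 47 genes 19 had an unadjusted p under 0.05, against 13.4% of all genes tested. Of the genes outside the name rule none passed the limma threshold, while 3 of 21 associated genes, a share near that 13.4%, and 3 of 7 peptide loading and interferon genes had an unadjusted p under 0.05. Tapbp (0.23 ± 0.06), B2m (0.40 ± 0.16), Nfe2l1 (0.24 ± 0.09), Tap1 (0.20 ± 0.09), Irf1 (0.18 ± 0.25) and Tap2 (0.04 ± 0.08) had positive differences, and Nploc4 (-0.18 ± 0.07), the proteasome adaptor gene AI314180 (-0.18 ± 0.07) and Pomp (-0.08 ± 0.06) negative ones.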

How the data were processed

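RNA was sequenced from 15 libraries, 3 in each of 5 groups named by the labels. The authors deposited RPKM per gene, per the file headers. The submitters' processing notes name TopHat2, an aligner, and the mm9 mouse genome. The counting tool, strand setting and filters were not given in the sources used here. Of the table's columns 1, numbered 4 in CD138+ GSK-J4, matched that group's label and no single sample. It was used as a replicate of the group with no mouse of its own. With mouse as a blocking term it formed a level of its own and so carried no weight. The CD138+ GSK-J4 group then rested on replicates 1 and 2. RPKM times length summed to 1000000 in each library, and the low values (20 reads or fewer) fell on whole reads, within 0.1 read, in 100% of cases, which gave the depth of each library. No raw counts were used in the main test. The reads recovered in this way entered only an alternative with voom.

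The 10866 genes that reached 1 RPKM in 3 or more libraries entered 1 limma fit (version 3.58.1, R 4.3.3) of log2(RPKM + 1) over the 15 libraries, with a trended variance. The main fit had no term for mouse, so its tests were unpaired. Adding 1 understates the changes of low genes. Benjamini-Hochberg adjustment ran over all 10866 genes, and calls were made at 0.05. The ratio of paired catalytic subunits was tested on the log2 scale with exact two-sided permutation tests and adjusted over 18 tests. The fit was run on simulated data whose set changes were larger than those called with GSK-J4 here. That run therefore does not show how reliable calls of that smaller size are. Ratios used scipy 1.17.1 and figures matplotlib 3.10.9 (python 3.11.15). Promoters and gene overlaps came from RefSeq on GRCm38.p6, another build than that of the values. There, 7 of the 49 genes overlap another protein-coding gene (Psmd1, Psmf1, Psma4, Psme4, Psmc3ip, Psme1 and Psmd10), and 6 pseudogenes named after Psma5, Psmb5, Psmb6 or Psmb7, and the copy Psme2b, can share reads with their parent genes, so these values are uncertain.

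The members and gene lists were chosen with earlier results of these data known. Values in every library are given for Psmb5 to Psmb10, Psme1 and Psme2. Each comparison also names, in either direction, the up to 4 called genes that changed most. Outside the name rule, Pomp, Nfe2l1, Tap1, Tap2 and Irf1 are named throughout, with up to 2 more per list of smallest adjusted p. Other genes named in a comparison were added after their values were seen. A further gene of the interferon list and a B cell marker are not reported here and were left out of their lists.

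Replicate numbers name the mouse, per the labels, and so pair the samples. Cultured libraries of 1 mouse deviated from their group means with a median correlation of 0.09 (15 pairs), against -0.03 for the other 39 pairs. Those 39 include the pairs of the library numbered 4, whose mouse is not known. Per the labels, the replicates of a group are separate mice. The correlations cannot show this, and the library numbered 4 matches no single mouse. No libraries held identical values. The alternatives were a pseudocount of 0.1, no filter, TMM scaling, quantile normalization, mouse as a blocking term, voom on recovered reads, fitting only the groups compared, and leaving out each library.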

Additional observations from a re-analysis of the deposited data

Results flagged for a closer look

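The change with GSK-J4 differed between the fractions, by a test of the difference itself, in 2 genes. In Psmg4 the change in CD138+ cells minus that in GL7+ cells was -0.50 on the log2(RPKM + 1) scale, and the change was positive in GL7+ cells and negative in CD138+ cells. In Psma5 the difference was -0.35. Neither was called in the fit with mouse as blocking term (adjusted p = 0.063 for Psmg4 and 0.11 for Psma5 by limma). The CD138+ GSK-J4 library numbered 4 carried no weight in that fit. Over the 22 alternatives the difference ranged from -0.56 to -0.43 in Psmg4 (18 calls) and from -0.39 to -0.32 in Psma5 (11 calls). The call for Psmg4, which had at most 167 reads in any library, was also lost with voom.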

How the results depend on the processing

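In the comparisons with naive cells the calls of 45 of 47 genes (GL7+) and 42 of 46 (CD138+) were kept in all 22 alternatives. The exceptions were Psmb8 and Psme1 in GL7+ and Psmb8, Psmb9, Psmf1 and Psmg4 in CD138+ cells. Between fractions 17 of 24 calls (DMSO) and 33 of 35 (GSK-J4) were kept, and for GSK-J4 against DMSO 1 of 10 in GL7+ and 1 of 4 in CD138+ cells. Leaving out 1 library at a time gave 46 higher and 1 lower in GL7+ and 43 to 45 higher and 1 lower in CD138+ against naive cells. It gave 17 to 25 (DMSO) and 32 to 36 (GSK-J4) lower between fractions. Quantile normalization called 2 genes lower in CD138+ against naive cells.

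For GSK-J4 in CD138+ cells the count of lower genes was 2 with no filter and 8 with only the groups compared, and 1 to 7 when leaving out a library. The count of higher genes was 1 with voom and 0 to 2 when leaving out a library. In GL7+ cells the count of higher genes was 14 with voom and 1 to 14 when leaving out a library. That of lower genes was 0 under TMM scaling, 0 with the mouse as a replicate block and 0 to 1 when leaving out a library. For the difference of the changes the count of lower genes was 0 with the replicate block, 4 with only the groups compared and 0 to 3 when leaving out a library. Between fractions with DMSO the count of higher genes was 2 under TMM scaling, 2 with voom, 3 with only the groups compared and 1 to 2 when leaving out a library, and with GSK-J4 it was 2 with only the groups compared and 1 to 2 when leaving out a library. The replicate block changed no other count by more than 1.5 times. Quantile normalization moved the split of all calls for GSK-J4 in CD138+ cells from 501 higher and 936 lower to 613 and 700, and TMM scaling moved that for the difference of the changes from 35 and 70 to 23 and 82. With the replicate block, where the CD138+ GSK-J4 library numbered 4 carried no weight, these splits were 313 and 614, and 12 and 20. The cause was not tested.

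All results that changed sign had not been called, except Psme1 in GL7+ against naive cells (-0.036 under quantile normalization). The log2 ratio of Psmb8 to Psmb5 changed sign for GSK-J4 in GL7+ cells (-0.1015 to 0.0437 when leaving out a library) and between fractions with GSK-J4 (-0.0788 to 0.0664). Under quantile normalization, against naive cells, Tap1 was at -0.108 (GL7+) and -0.0369 (CD138+), and between fractions Pomp was at 0.0252 and Tap2 at 0.0133 with DMSO and Tap2 at 0.064 with GSK-J4. Under TMM scaling Tap2 was at 0.07885 (GL7+) and 0.0659 (CD138+) against naive cells, Psme1 at 0.12 in CD138+ against naive cells (0.0158 with voom) and Psmb8 at 0.0311 between fractions with DMSO. In the difference of the changes Psmb6 was at 0.019 with the replicate block. When leaving out a library, Tap2 ran from -0.0696 to 0.00693 in GL7+ and Psme1 from -0.0991 to 0.0514 in CD138+ against naive cells. Between fractions, Tap1 ran from -0.00598 to 0.0697 and Irf1 from -0.0700 to 0.246 with DMSO, and Tap2 from -0.0765 to 0.0244 with GSK-J4. For GSK-J4 in GL7+ cells, Psmb10 ran from -0.00876 to 0.127, Tap1 from -0.0797 to 0.0288 and Irf1 from -0.306 to 0.0519, and in CD138+ cells Irf1 from -0.0594 to 0.177. For the difference of the changes, Psmb6 ran from -0.0666 to 0.00979, Psmb9 from -0.101 to 0.00437, Tap2 from -0.0194 to 0.0815 and Irf1 from -0.00504 to 0.353. Naive replicate 2, with the fewest reads, limits the precision of the naive group.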
